A study of Homo sapiens with 6 samples.

Results

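GABA and glutamate are the main inhibitory and excitatory transmitters of the brain, and the genes described here encode the subunits of their receptors. The genes were taken by symbol: protein-coding genes of the GABA-A (GABRA to GABRR), GABA-B (GABBR), AMPA (GRIA), kainate (GRIK), delta (GRID), NMDA (GRIN1 to GRIN3) and metabotropic glutamate (GRM) families, whatever their level. This gave 48 of the 19629 protein-coding genes in the count files, of which 17 reached a total of 10 counts or more. GRID2IP was taken in by its symbol, although it encodes a scaffold protein that binds the delta receptor and not a receptor subunit.

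All libraries came from A172, a human cell line grown from a glioblastoma. The cells stably carried a lentiviral construct for RBFOX1, an RNA-binding protein of neurons and muscle that controls splicing and mRNA stability, or for GFP as the control, with 3 libraries of each. Both groups were therefore infected and carried an expression construct, and nothing states whether a line was grown from a clone. The labels number the samples of a group from 1 to 3, and the methods of the study call them biological replicates.

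GABA-A receptors are pentameric chloride channels, usually assembled from alpha, beta and gamma subunits, whereas rho subunits can form channels on their own and are best known from the retina. GABA-B receptors are obligate pairs of the GABBR1 and GABBR2 proteins that signal through G proteins. NMDA receptors need the GRIN1 subunit together with GRIN2 or GRIN3 subunits, AMPA and kainate receptors carry fast excitation, and metabotropic receptors signal through G proteins. RBFOX1 binds TGCATG (written in DNA letters), so the 3' ends of these mRNAs are shown first.

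In the 3' UTR of the canonical transcript, 6 of the 8 receptor genes that passed the test described below held at least 1 TGCATG, as did 4 of the 9 tested genes that did not pass it. The 3' UTRs of the former had a median of 2598 bases and those of the latter of 547 bases, and longer 3' UTRs have more room for a site. The sites below are from GRCh38 with GENCODE release 44, read 5' to 3' on the strand of the gene, with the motif in capitals. They are first sites of genes that passed the test, followed by the first site of GABRA3, which did not pass it.
GABRR1 (chr6:89178337-89178366, minus strand): ctacaggccattTGCATGaaattcacatgc
GRIN2A (chr16:9762703-9762732, minus strand): agcaatatggtgTGCATGtaaacctgacac
GABBR2 (chr9:98288139-98288168, minus strand): tcgtacccctacTGCATGgtatcgattttt
GRID1 (chr10:85601348-85601377, minus strand): ggtggggttagtTGCATGgaccaggtgagg
GABRG1 (chr4:46036526-46036555, minus strand): tagatacttgctTGCATGtagatgggtaca
GABRA3 (chrX:152167932-152167961, minus strand): agctgagggcacTGCATGtattttattgca

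GRIN2A held 8 sites in a 3' UTR of 9741 bases, the most among the tested genes, while GABRR1, GABBR2, GRID1 and GABRG1 held 1 each. The site of GABRR1 began at base 416 of 1266 in its 3' UTR, and that of GABBR2 at base 2428 of 2475, near its end. GABRE and GABBR1, which both rose, held none. In GABRG1, which fell, the site began at base 4445 of 5219. Tested genes that held a site without passing the test included GABRA3 and GABRR2 with 2 sites each and GRM8 with 1. For windows of the same length, 14 of the 35 receptor genes with a 3' UTR of at least 1000 bases had a site in the first 1000 bases (40%), against 25.8% of the 10119 protein-coding genes with such a 3' UTR. Among tested genes these were 7 of 11 receptor genes (63.6%) and 26.2% of 8089 protein-coding genes. The tested receptor genes with such a site include GABRR1 and GRIN2A, which were tested only because of their counts in RBFOX1 cells. Their rise thus helped to choose this set, and the share without them was not computed. Among all 48 genes 29 had a site somewhere in the 3' UTR, as did 6499 of 20046 annotated protein-coding genes. The median 3' UTR had 2181.5 bases in the former and 1064 bases in the latter. Of the tested genes, 10 of 17 receptor genes and 5131 of 14094 protein-coding genes had a site, with medians of 1577 and 1298 bases. The receptor genes with a site again include GABRR1 and GRIN2A, so the same limit holds. The motif was searched on the sense strand only, counting overlapping matches, and a match is a stretch of letters and not a measured binding site.

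The libraries held 7433414 (RBFOX1 replicate 1) to 23249221 (GFP replicate 1) counts on genes. A value of 3 counts, the limit that a count of 0 allows, was worth 1.82 to 5.44 normalized counts (counts scaled with edgeR's TMM method to a mean library). RBFOX1 itself had 4, 0 and 1 counts in GFP replicates 1, 2 and 3, and 10276, 16467 and 21451 in RBFOX1 replicates 1, 2 and 3. Of the astroglial and glioma markers, VIM, NES and CD44 were abundant, with means of 3482 to 59589 normalized counts in the GFP libraries. EGFR, SOX9, TNC and SOX2 had means of 2468, 1202, 903 and 23.5 there. GFAP and ALDH1L1 had means of only 2.68 and 2.69. S100B and SLC1A3 had 3 and 2 counts over all libraries, and AQP4 had none. Of the neuronal markers, NEFL, MAP2 and TUBB3 had means of 3949, 110 and 62.9 normalized counts in the GFP libraries, whereas RBFOX3, SNAP25, NEFM, ELAVL3, ELAVL4, INA and DCX had 0 to 8 counts over all libraries.

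Of the 17 receptor genes tested, RBFOX1 cells had more of 7 and less of 1. The test was the quasi-likelihood test of edgeR with a Benjamini-Hochberg adjustment over all 20536 genes tested, and a gene was called where the adjusted p lay under 0.05. Among all genes tested, 23.7% were called higher and 22.9% lower, or 46.7% in all. The share of receptor genes called in either direction was 47.1% and so near that of all genes, while 41.2% of them were called higher and 5.88% lower. The receptor genes are all protein-coding. Of the 14094 protein-coding genes tested, a larger share of 59.1% was called, 4267 higher and 4064 lower. Most receptor genes were measured at few counts. For the 14 with a mean normalized count under 100, 5 were called higher and 1 lower, or 42.9% in all. That division was chosen after the values were seen. Of all tested genes below that level, 15.8% were called higher and 10.5% lower, or 26.3% in all. The 5, like the 7 above, include GABRR1 and GRIN2A, which reached 10 counts through the RBFOX1 libraries alone. The median log2 fold change of the 17 genes was 0.31, and 0.31 also with the genes near 0 in GFP cells set to their bound, where all genes tested had 0.01. Without GRID2IP it was 0.38. Among the 15 genes with at least 5 counts in the GFP libraries, 5 were called higher and 1 lower, and the median was -0.12. Because that division uses GFP libraries only, it leaves out genes that rise from near 0 and keeps genes that fall. The share of all genes called under it was not computed. The libraries of the 2 groups did not overlap for 10 of the 17 genes (58.8%), as for 53.4% of all genes tested.

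**Figure D1:**
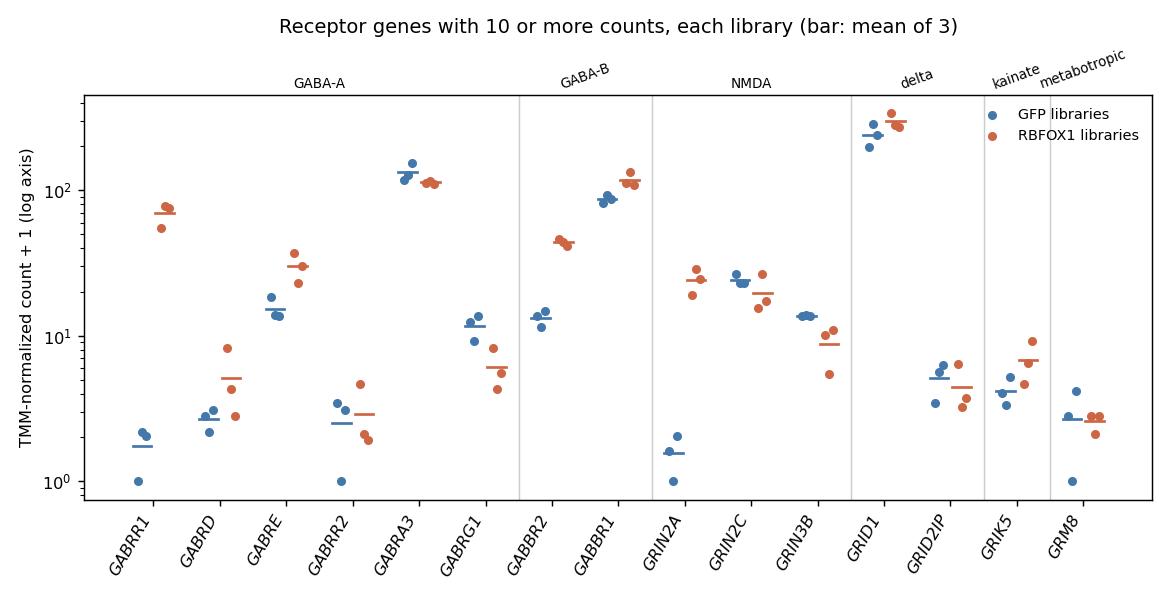
TMM-normalized count plus 1 (log axis) of 15 receptor genes with at least 10 counts, grouped by receptor family, with 3 GFP libraries (blue) and 3 RBFOX1 libraries (orange) per gene and a bar at the mean of each group. GABRR1 and GRIN2A lay at or near 0 in GFP cells, with means of 0.740 and 0.554 normalized counts, and rose to 68.6 and 23.2 in RBFOX1 cells.

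The largest change was that of GABRR1, which encodes a rho subunit of GABA-gated chloride channels. GABRR1 (ENSG00000146276, chromosome 6, 89177504 to 89231278, minus strand) had counts of 0, 1 and 1 in GFP replicates 1, 2 and 3 and of 30, 69 and 82 in RBFOX1 replicates 1, 2 and 3. The normalized count was 0.740 ± 0.644 (SD, n = 3) in GFP and 68.6 ± 12.3 (SD, n = 3) in RBFOX1 cells. Its log2 fold change was 6.64 (standard error 0.421, edgeR adjusted p = 6.55e-11). Since only 2 counts were seen in GFP cells, the fitted value depends on the prior count. The ratio of the summed rates was 123, with a 95% interval of 33.5 to 1021 that covers counting error only. All RBFOX1 libraries thus lay far above all GFP libraries. GABRR1 and GRIN2A were the only tested receptor genes with 3 counts or fewer in the GFP libraries together, so these genes passed the filter on counts through RBFOX1 cells alone.

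The neighbours of GABRR1 were looked up after its values were seen. GABRR2, which encodes another rho subunit and lies 23186 bases away on the same strand, had counts of 4, 0 and 2 in the GFP and of 2, 1 and 1 in the RBFOX1 libraries. Both means were under the level of 3 counts, so no fold is given. PM20D2, 11939 bases away on the other side, and UBE2J1, past GABRR2, had log2 fold changes of -0.13 and -0.01 and did not pass the test (edgeR adjusted p = 0.159 and 0.929). SRSF12, an SR-related splicing factor gene 59433 bases away, was higher in RBFOX1 cells, at 17.8 ± 5.26 against 4.97 ± 0.818 normalized counts (SD, n = 3 each, edgeR adjusted p = 0.000703). The third rho gene, GABRR3 on chromosome 3, had no count. Neighbours of the other called receptor genes were read too. All those read around GABBR2 passed the test (edgeR adjusted p at most 1.22e-08). TBC1D2 was higher there (log2 fold change 0.95), and CORO2A, ANKS6 and GALNT12 were lower (-0.78, -0.75 and -3.78).

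The other GABA-A genes moved less and in both directions. GABRE, which encodes the epsilon subunit, had normalized counts of 17.6, 12.8 and 12.6 in the GFP libraries and of 36.3, 22.2 and 29.2 in the RBFOX1 libraries. It rose by 0.92 on the log2 scale (standard error 0.269, edgeR adjusted p = 0.00793), and every RBFOX1 library lay above every GFP library. GABRG1, which encodes a gamma subunit, had counts of 19, 7 and 12 in the GFP and of 4, 3 and 5 in the RBFOX1 libraries, or 10.8 ± 2.33 and 5.05 ± 2.01 when normalized (SD, n = 3 each). It was the 1 receptor gene called lower (log2 fold change -1.19, standard error 0.436, edgeR adjusted p = 0.03). At these counts the call was not firm: it was lost without GFP replicate 1 (adjusted p = 0.0852), GFP replicate 3 (0.0737), RBFOX1 replicate 2 (0.122) or RBFOX1 replicate 3 (0.0983), and with DESeq2 (0.177).

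GABRA3, which encodes an alpha subunit, was the GABA-A gene with the most reads per length in both groups. Its normalized count was 116, 126 and 153 in GFP and 112, 115 and 110 in RBFOX1 cells, so that the RBFOX1 libraries lay just below the GFP libraries (log2 fold change -0.21, 95% interval -0.47 to 0.06, edgeR adjusted p = 0.2). GABRD, the delta subunit gene, had counts of 3, 1 and 2 in the GFP and of 4, 3 and 2 in the RBFOX1 libraries (log2 fold change 0.99, 95% interval -0.55 to 2.53). GABRE and GABRA3 lie on the same strand of chromosome X, 191554 bases apart. The ratio of GABRE to GABRA3 per kilobase was 0.0484 ± 0.0154 in the control and 0.112 ± 0.0282 in RBFOX1 cells (SD, n = 3 each). Every RBFOX1 library lay above every GFP library for GABRE and below for GABRA3, so these ratios could not overlap. An exact two-sided permutation test of the ratio (p = 0.1, the smallest it can give) therefore adds nothing to the values of the 2 genes.

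Among the beta subunit genes, GABRB1 had no count in any library and GABRB2 had 1 count, in GFP replicate 1. The alpha subunit genes GABRA2, GABRA4 and GABRA6, GABRG3, GABRP and GABRQ likewise had no count, and GABRA5 had 1 count, in GFP cells. A count of 0 allows up to 3 counts in a library. Among tested genes per kilobase of exon, GABRA3 stood at 31.7 ± 4.58 (SD, n = 3) normalized counts in the control and 27.2 ± 0.604 in RBFOX1 cells, and GABRR1 at 0.196 ± 0.171 and 18.2 ± 3.27. Of the summed GABA-A signal per kilobase, GABRA3 made up 82.8 ± 2.39% in GFP and 52.2 ± 1.99% in RBFOX1 cells, and GABRR1 0.499 ± 0.447% and 34.8 ± 5.11% (SD, n = 3 each). The sum itself was 38.3 ± 4.99 and 52.1 ± 1.92 normalized counts per kilobase, and without GABRR1 it was 38.1 ± 4.91 and 33.9 ± 1.37 (SD, n = 3 each). Exon lengths came from a later annotation than that of the counts, which can shift such levels between genes but not the difference between groups of a gene.

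**Figure D2:**
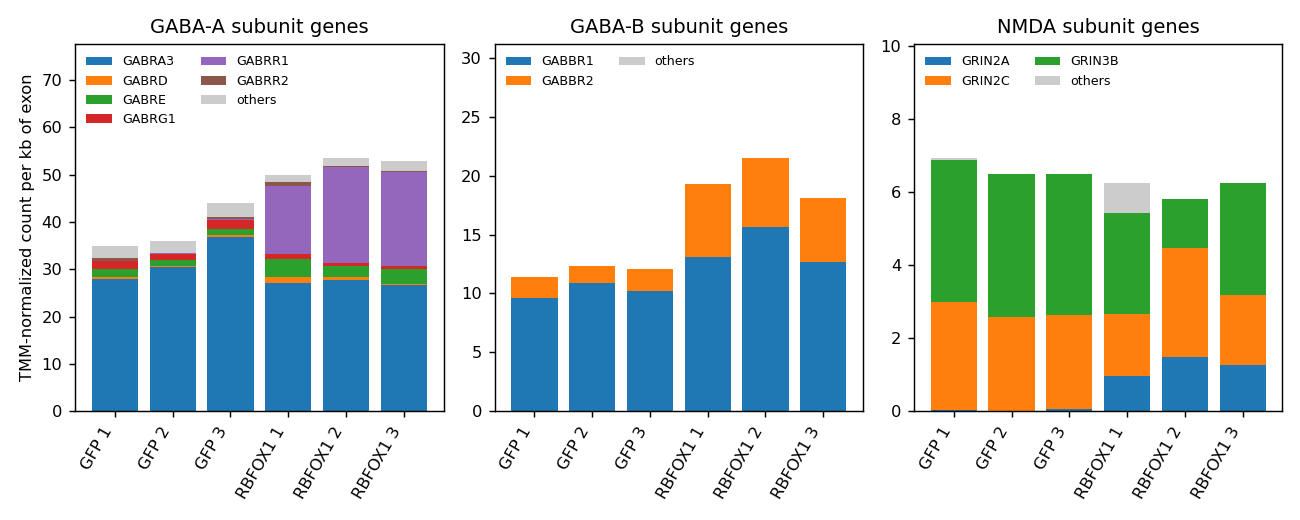
Stacked TMM-normalized counts per kilobase of exon for the GABA-A (left), GABA-B (middle) and NMDA (right) subunit genes in each of the 3 GFP and 3 RBFOX1 libraries, with genes not named in the key summed as others. GABRR1 makes up 28.9 to 38.0% of the GABA-A bars in RBFOX1 libraries and at most 0.863% in GFP libraries, GABBR2 rises within the GABA-B bars, and GRIN2A appears within NMDA bars of similar height.

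Both GABA-B genes rose. GABBR2 encodes the subunit that couples to G proteins and lies on chromosome 9 (98288109 to 98708935, minus strand). Its counts were 21, 9 and 13 in the GFP and 25, 39 and 44 in the RBFOX1 libraries, or 12.3 ± 1.64 and 42.9 ± 2.60 when normalized (SD, n = 3 each), and it rose by 1.76 on the log2 scale (standard error 0.234, edgeR adjusted p = 2.79e-06). GABBR1, on chromosome 6, encodes the subunit that binds GABA and had 81.3, 92.3 and 86.4 normalized counts in the GFP and 111, 132 and 107 in the RBFOX1 libraries, a rise of 0.44 on the log2 scale (standard error 0.129, edgeR adjusted p = 0.00795). For both genes all RBFOX1 libraries lay above all GFP libraries, though the call of GABBR1 was lost without RBFOX1 replicate 2 (adjusted p = 0.0691). The ratio of GABBR2 to GABBR1 per kilobase was 0.180, 0.131 and 0.183 in the GFP and 0.472, 0.377 and 0.433 in the RBFOX1 libraries. An exact two-sided permutation test of this ratio gave p = 0.1, the smallest that 3 against 3 libraries allow. GABBR2 overlaps the pseudogene SEPTIN7P7 on the other strand, which had 19 ± 2.32 and 21.3 ± 5.92 normalized counts (SD, n = 3 each) and did not pass the test. The deposited tables are named as counts of the reverse strand setting, which was not checked further here.

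Among NMDA receptor genes, GRIN2A rose from near 0. GRIN2A encodes the GluN2A subunit, typical of mature synapses, and lies on chromosome 16 (9753404 to 10182928, minus strand). Its counts were 1, 0 and 1 in the GFP and 10, 25 and 26 in the RBFOX1 libraries. The log2 fold change was 5.09 (standard error 0.540, edgeR adjusted p = 1.38e-07), and the ratio of summed rates was 41.3 with a counting interval of 11.0 to 349. The libraries were far apart between the groups, as for GABRR1, but the level remained low, at 1.24 ± 0.259 (SD, n = 3) normalized counts per kilobase in RBFOX1 cells.

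The NMDA genes already present in GFP cells did not pass the test. GRIN2C, the GluN2C subunit gene, had normalized counts of 25.5, 22.2 and 22.1 in the GFP and of 14.5, 25.5 and 16.4 in the RBFOX1 libraries, with a log2 fold change of -0.30 (95% interval -0.85 to 0.26). GRIN3B, which encodes a glycine-binding subunit, had normalized counts of 12.7, 12.8 and 12.6 in the GFP and of 9.07, 4.44 and 10.0 in the RBFOX1 libraries, below them without overlap (log2 fold change -0.69, 95% interval -1.47 to 0.09, edgeR adjusted p = 0.144). It overlaps TMEM259 on the other strand, which was far more abundant (mean normalized count 1721 in GFP cells) and was lower in RBFOX1 cells (log2 fold change -0.44, adjusted p = 8e-06). GRIN1, the subunit that NMDA receptors require, had 1 count in GFP replicate 1 and 1 in RBFOX1 replicate 1. GRIN2D had 2 counts, both in RBFOX1 replicate 1, and GRIN2B and GRIN3A had none. GRIN2A made up 0.446 ± 0.436% of the summed NMDA signal per kilobase in GFP and 20.5 ± 5.01% in RBFOX1 cells, while that sum was 6.64 ± 0.260 and 6.10 ± 0.250 normalized counts per kilobase (SD, n = 3 each).

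Of the metabotropic receptor genes, which modulate synaptic transmission, GRM8 had counts of 3, 0 and 3 in the GFP and of 1, 1 and 2 in the RBFOX1 libraries, with both means under the level of 3 counts, so no fold is given. GRM2, GRM4 and GRM5 had 4, 7 and 1 counts in all, and GRM3, GRM6 and GRM7 none.

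GRID1 had the most reads per length of all 48 genes. It encodes a delta receptor subunit, which binds cerebellins at synapses, and lies on chromosome 10 (85599552 to 86366795, minus strand). It stood at 38.6 ± 7.09 normalized counts per kilobase in the control and 47.7 ± 5.90 in RBFOX1 cells (SD, n = 3 each), against a median of 64.7 over the tested protein-coding genes. Its normalized count was 198, 286 and 237 in the GFP and 339, 281 and 271 in the RBFOX1 libraries, so that the groups overlapped. The log2 fold change of 0.31 (standard error 0.117, edgeR adjusted p = 0.0347) passed the test narrowly. The call was lost without GFP replicate 1 (log2 fold change 0.17, adjusted p = 0.223), GFP replicate 3 (0.0562), RBFOX1 replicate 1 (0.151) or RBFOX1 replicate 2 (0.0549), and with DESeq2 (0.0621) or a replicate block (0.055). GRID2IP had counts of 4, 4 and 5 in the GFP and of 3, 2 and 3 in the RBFOX1 libraries, with a log2 fold change of -0.26 (95% interval -1.59 to 1.07).

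Genes of the fast AMPA and kainate receptors were close to absent. The AMPA genes GRIA1, GRIA2 and GRIA4 had 3, 4 and 4 counts over all libraries and GRIA3 none. Of the kainate genes, GRIK5 reached the filter. It had counts of 5, 2 and 4 in the GFP and of 2, 5 and 9 in the RBFOX1 libraries (log2 fold change 0.94, 95% interval -0.20 to 2.08, edgeR adjusted p = 0.174). ZNF574, which overlaps the start of GRIK5 on the other strand, had a log2 fold change of 0.18 and did not pass the test (adjusted p = 0.0745). GRIK2, GRIK3 and GRIK4 each had 4 counts over all libraries, with those of GRIK3 all in RBFOX1 cells, and GRIK1 had none. In all, 16 of the 48 genes (33.3%) had no count in any library, against 16.8% of protein-coding genes, and 35.4% reached 10 counts, against 71.8%.

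**Figure D3:**
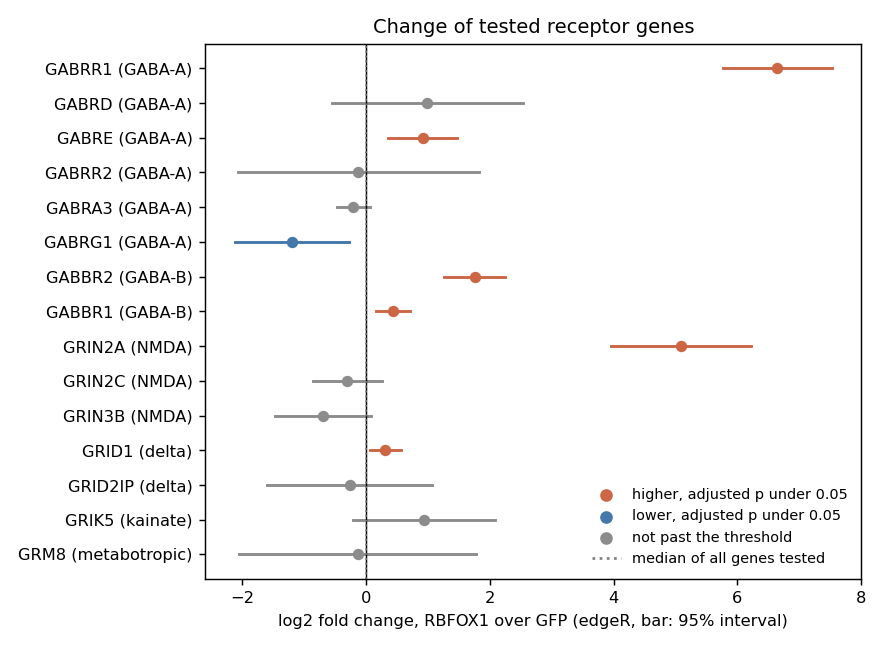
Log2 fold change of RBFOX1 over GFP cells for 15 tested receptor genes, from edgeR, with its 95% interval as a bar and the family in brackets; a dotted line marks the median of all genes tested, 0.01. GABRR1 and GRIN2A lie far to the right at 6.64 and 5.09, GABBR2 lies at 1.76, and the intervals of the genes in grey include 0.

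Genes that serve these receptors were read from 3 lists, whose shares of called genes are to be set beside the 46.7% of all genes tested and the 59.1% of protein-coding genes tested. Of 38 auxiliary subunit, scaffold and organizer genes of glutamate receptors, 27 were tested, with 8 higher and 6 lower (median log2 fold change 0.16), or 51.9% called. The kainate receptor partner NETO1 rose by 1.06 on the log2 scale, from 79 ± 6.67 to 162 ± 13.6 (normalized, SD, n = 3 each), while its paralog NETO2 fell by 0.48 on the log2 scale from a mean of 412. DLG4, which encodes the postsynaptic scaffold PSD-95, rose by 0.90 and SHISA9, an AMPA receptor partner, by 0.70 on the log2 scale. SHANK3, another postsynaptic scaffold, fell by 0.65 and CNIH3, an AMPA receptor partner, by 0.62, the latter from 1820 ± 92 to 1181 ± 38.7 (normalized, SD, n = 3 each), although the AMPA genes themselves were at a trace. For each of these genes the groups did not overlap and the edgeR adjusted p was at most 0.000892. At lower levels, CNIH2, an AMPA receptor partner, was higher (4.86 and 24.2 normalized counts on average) and the scaffold gene DLG2 lower (24.4 and 11.6), both also without overlap.

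Of 19 genes that anchor or traffic GABA receptors, 18 were matched and 15 tested, with 4 higher and 3 lower (median log2 fold change -0.03), or 46.7% called. NSF, a membrane fusion ATPase, rose by 0.75, and TRAK2, a transport adaptor, by 0.56 on the log2 scale. ARFGEF2 fell by 0.33, the palmitoyltransferase ZDHHC3 by 0.25 and GABARAPL2 by 0.21. GPHN, which encodes the gephyrin scaffold itself, had 72.2 and 69 normalized counts on average in GFP and RBFOX1 cells (log2 fold change -0.04, 95% interval -0.35 to 0.27). KCTD16 and KCTD12, auxiliary subunits of GABA-B receptors, had log2 fold changes of -0.06 and -0.60 and did not pass the test (edgeR adjusted p = 0.832 and 0.147).

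Of 34 enzyme and transporter genes of GABA and glutamate, 17 were tested, with 4 higher and 7 lower (median log2 fold change -0.07), or 64.7% called. GLUL, which makes glutamine from glutamate, rose by 0.91 on the log2 scale, from 1280 ± 21 to 2397 ± 84.7 (normalized, SD, n = 3 each). SLC7A11, the cystine-glutamate exchanger, fell from 6699 ± 227 to 2197 ± 18 (log2 fold change -1.61, edgeR adjusted p = 7.14e-16), and the glutamine carriers SLC38A2 and SLC38A1 fell by 0.59 and 0.52 on the log2 scale. GAD1, which makes GABA, was also lower, with a log2 fold change of -0.47, while GAD2 and the vesicular GABA transporter gene SLC32A1 had no count. The glial glutamate transporter gene SLC1A2 was called higher on counts of 1, 1 and 0 in the GFP and of 0, 5 and 5 in the RBFOX1 libraries, which overlapped.

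**Figure D4:**
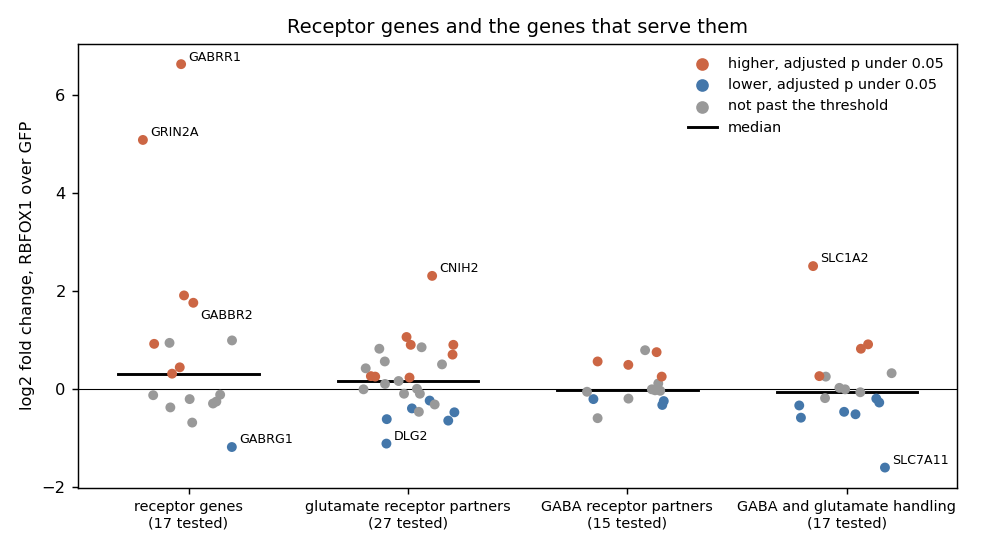
Log2 fold change of RBFOX1 over GFP cells for the tested receptor genes and for the tested genes of the 3 lists, a point per gene (orange higher and blue lower at an adjusted p under 0.05, grey not past the threshold) and a black line at each median. The medians of 0.31, 0.16, -0.03 and -0.07 lie near 0, and GABRR1 and GRIN2A stand above all genes of the lists.

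Lists of cell type markers changed in both directions, where 46.7% of all genes tested were called. Of 13 neuronal markers, 6 were tested and 4 were higher in RBFOX1 cells (STMN2, NEFL, SYP and MAP2), and the summed normalized count of the list was 3989 to 4316 in the GFP and 17585 to 19683 in the RBFOX1 libraries, most of it NEFL. DCX had no count in any library and RBFOX3, SNAP25, NEFM, ELAVL3, ELAVL4 and INA fewer than 10. Of 6 endothelial markers, 5 were tested and 4 were higher, with sums of 111 to 143 and 402 to 446. Of 8 microglial markers, 4 were tested, with 2 higher and 1 lower and sums of 84.1 to 95.9 and 117 to 136, and AIF1, P2RY12 and TYROBP at 0. Of 9 oligodendrocyte lineage markers, 5 were tested, with 2 higher and 2 lower, sums of 2928 to 3293 and 2105 to 2587, and OLIG1, SOX10, MOG and MAG at 0. Of 12 astroglial and glioma markers, 9 were tested, with 2 higher and 4 lower and sums of 80936 to 81730 and 53262 to 53849. The part of these markers in the receptor results was not tested, and in bulk RNA more cells with a transcript and more RNA per cell cannot be told apart.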

How the data were processed

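RNA from the 6 A172 samples had its rRNA removed before stranded libraries were made and read from both ends. The authors used HISAT2 on GRCh38, then HTSeq-count (mode intersection-strict) with Ensembl genes, and deposited a raw count for each gene and library (tool versions are not given in the sources used here). The lines of HTSeq for unassigned reads stayed out, and 52 to 61.9% of read pairs were on genes. The authors' DESeq2 table holds fold changes and p-values of the same comparison and was not used.

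Gene names, positions, exon lengths and UTRs were those of GENCODE release 44 (GRCh38), which matched 98.1% of the 58051 identifiers. Counts were TMM-normalized and tested with edgeR 4.0.16 (R 4.3.3, two-sided quasi-likelihood test, condition only) over genes with at least 10 summed counts. Normalized counts are scaled to a library of 13877712. Standard errors were derived from the test's F statistic. Intervals of ratios with few counts are exact conditional binomial intervals at 95%, and these and the limits cover counting error only. The 95% intervals of log2 fold changes come from the same F statistic and include the spread between libraries. The common biological coefficient of variation was 0.0542. Replicates differed by more than counting noise. The chi-square, divided by its degrees of freedom, was 1.66 for GFP replicates 2 and 3. It was 8.9 and 9.07 for GFP replicate 1 against replicates 2 and 3, and 1.98 to 3.01 within RBFOX1. Such differences cannot show that the replicates were separate cultures, so p-values measure the spread between these samples. DESeq2 1.42.0, limma-voom (limma 3.58.1), 3 other scalings, 2 other filters, a replicate block and the omission of each library were run as alternatives. The procedure was run on simulated counts with a single dispersion, in which 200 genes above a minimum level were changed. Its outcome is not given here, and it did not cover changes of receptor genes below that level. The receptor genes and lists were chosen with earlier results of these data known. The receptor genes are named, except that results of some genes are not reported here although they are included in the counts of genes. From each list were taken up to 3 genes with the largest rise and 3 with the largest fall among called genes whose mean normalized count reached 50 and whose groups did not overlap. GPHN, the KCTD genes, CNIH2, DLG2, SLC1A2, GAD1, GAD2 and SLC32A1 were chosen after their values were seen. So were the neighbours of GABRR1 and GABBR2 and the contrast of the NETO pair. The ratios of receptor gene pairs were not among the planned tests.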

Additional observations from a re-analysis of the deposited data

How the results depend on the processing

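Of the 8 receptor genes called, 5, among them GABRR1, GRIN2A, GABBR2 and GABRE, passed the threshold in the same direction under each of the 14 alternatives that gave them a value, and none of the 9 uncalled genes passed it under any. The receptor genes called higher numbered 5 to 7 over the alternatives. GABRG1, the gene called lower, was lost with DESeq2 and with a replicate block (0 genes lower in each, adjusted p = 0.177 and 0.0631), was left out by edgeR's filterByExpr (0 genes lower), and leaving out a library gave 0 to 1. GRID1 was also lost with upper quartile scaling (adjusted p = 0.0502) and with the replicate block (0.055), 7 of its 14 alternatives in all. The median log2 fold change was 0.46 with filterByExpr, which tests fewer genes, and 0.35 to 0.52 with a library left out. For GABRR2 and GRM8, whose means lay under the level of 3 counts in both groups, the fitted log2 values are no measured change: they turned positive with limma-voom (0.15 and 0.28) and, for GABRR2, with the replicate block (0.24), and were not called. The handling genes called higher fell from 4 to 2 with DESeq2 and with the replicate block, and numbered 2 to 4 with a library left out; the cause was not tested. The replicate numbers are not stated to mark a shared culture, and same-numbered libraries deviated from their group means with correlations of -0.146, 0.0137 and -0.041 over 13067 genes, so they were not taken as pairs; with the block, 9046 genes were called in place of 9581. Library size alone as scaling moved the median of all genes to 0.055, and the share of called genes that were higher from 50.8 to 56.6%. At this depth, genes near 3 counts could not be measured precisely.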
